A study of Mus musculus with 15 samples.

Results

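The antiviral interferon-stimulated genes are 45 genes, of 55421 counted per sample, that were chosen by symbol with the difference between AMPKα1-deficient (KO) and WT CD4+ T cells in these data known, and all 45 symbols were found in the gene annotation. The KO against WT difference is therefore given below as a description: no p-value is given for it, and the members that passed the threshold of the fit over all genes are counted beside the share of all genes that did, as support for nothing. The difference between organs was not used to choose them and is tested. The genotype by organ interaction is tested too, but it is built from the KO against WT differences of the organs, so it is not independent of that choice. Donor mice were C57BL/6 and homozygous for a floxed PRKAA1 allele (PRKAA1fl/fl), in the gene of the catalytic AMPKα1 subunit. WT donors had no Cre and KO donors also carried CD4-Cre, so the WT cells carry the floxed alleles but not the Cre, and effects of Cre and of the deletion cannot be told apart. CD4-Cre acts from the thymocyte stage at which CD4 and CD8 are both present, so deletion precedes the transfer. Naive CD4+ T cells were moved into Rag2-deficient recipients, which have no T or B cells of their own, and were sorted again after 6 weeks from spleen and mesenteric lymph nodes (mLN) during transfer colitis. For this model the paper reports weight loss and heavy T cell infiltration in recipients of WT cells, and mild inflammation in recipients of KO cells. Genotype of the cells and disease of the recipient therefore cannot be told apart in the KO against WT difference. Spleen is represented by 4 WT and by 4 KO samples, mLN by 3 WT and by 4 KO. The labels give no age and no day of collection, and where they do not tie a sample to a mouse the p-values measure the spread between these samples only.

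Interferons are secreted proteins that bind receptors on nearly all cells. Type I interferons act through the receptor chains Ifnar1 and Ifnar2 and the kinases Jak1 and Tyk2, which lead to a complex holding Stat2 and Irf9 that binds the interferon-stimulated response element (ISRE) in promoters. Interferon gamma, a product of T cells, acts through Ifngr1 and Ifngr2 on factors that bind the gamma-activated site (GAS). The genes switched on in this way sense foreign RNA and DNA, degrade RNA, block translation, modify proteins with ISG15 or ubiquitin, and feed back on the signal, and T cells express them at rest as well as after an interferon signal.

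Promoter stretches of 8 members from 6 of the 8 role groups are shown because they hold the ISRE letters, a sequence feature that the choice of members did not use. The motif searched was GAAA, any 2 bases and GAAA again, on both strands (so TTTC, any 2 bases and TTTC also count), in RefSeq promoter sequences of GRCm38.p6 that run from 250 bases before the start site to 50 after it. Capitals mark the matches, overlapping ones joined, and each stretch is printed 5′ to 3′ in the direction of the gene.
Isg15, chr4:156200860-156200911, minus strand: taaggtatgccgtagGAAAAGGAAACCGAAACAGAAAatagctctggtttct
Ifit1, chr19:34640770-34640828, plus strand: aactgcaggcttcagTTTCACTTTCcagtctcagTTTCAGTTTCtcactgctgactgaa
Ifit3, chr19:34583358-34583431, plus strand: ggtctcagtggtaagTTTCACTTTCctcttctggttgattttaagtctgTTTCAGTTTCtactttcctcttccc
Oas1a, chr5:120907526-120907560, minus strand: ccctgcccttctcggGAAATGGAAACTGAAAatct
Oas3, chr5:120777710-120777749, minus strand: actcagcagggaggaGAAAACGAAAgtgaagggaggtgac
Bst2, chr8:71537572-71537617, minus strand: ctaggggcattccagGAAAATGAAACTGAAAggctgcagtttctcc
Stat2, chr10:128270261-128270300, plus strand: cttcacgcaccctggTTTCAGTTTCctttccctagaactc
Mndal, chr1:173880199-173880238, minus strand: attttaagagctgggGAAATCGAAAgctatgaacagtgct

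Of the 45 members, 36 had a promoter in the RefSeq table, and the ISRE letters were present in 16 of these 36 (44.4%), beside 3.99% of 27025 genes with a promoter of the same length. Counted by promoter, 19 of the members' 47 (40.4%) held them, beside 3.44% of 32851. Among 62 other interferon-stimulated genes listed for comparison the share was 46.8%. The 25 matches lay mostly upstream, with 20 of them within 200 bases before a start site and a median first base at −72. Matches were counted by promoter, so a Slfn8 site that lies in both promoters of that gene was counted in each. The GAS letters TTCNNNGAA, which read the same on both strands, were found in 7 of the 36 members (19.4%), beside 9.55% of all genes. Isg15 held 3 overlapping ISRE matches, Ifit1, Ifit3, Oas1a and Bst2 held 2 each, and the stretch printed for Mndal occurs letter for letter in the promoter of its neighbour Ifi203, on the same strand at chr1:173942503-173942542. Promoters of Ifi27l2a, Mx1, Usp18, Rtp4, Dhx58, Zbp1, Oas2, Parp9 and Parp14 were not in the table.

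**Figure D1:**
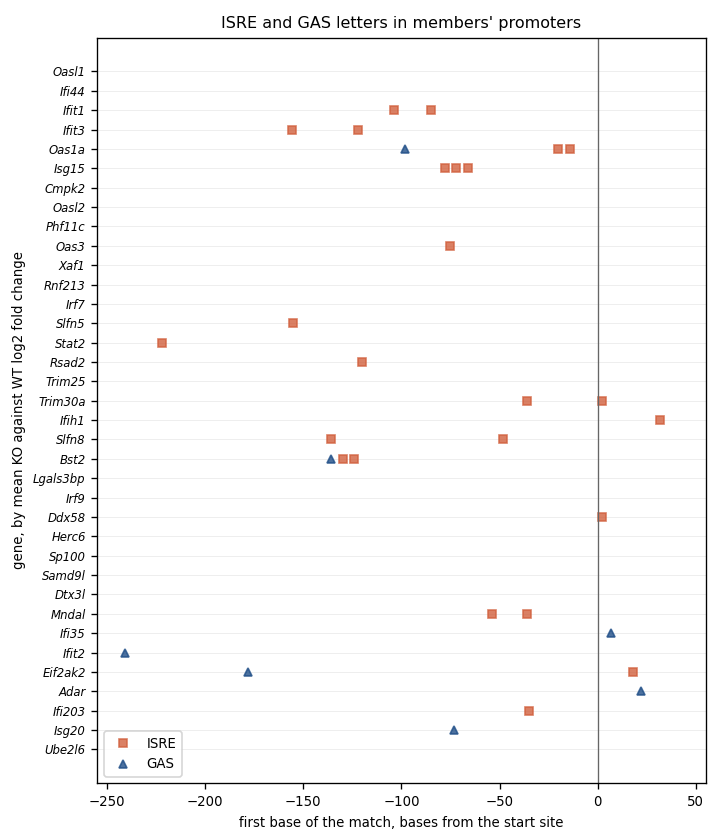
Position of the ISRE letters (orange squares) and GAS letters (blue triangles) in the promoters of the 36 members in the RefSeq table, in bases from the start site (x axis, first base of the match), with genes ordered by their mean KO against WT log2 fold change. ISRE matches are present in 16 genes and, counted by promoter, 20 of 25 matches lie within 200 bases before the start.

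Reads counted on genes ranged from 9363940 to 11283439 per sample. Prkaa1, the deleted gene, had 46.7 to 53.5 counts per 1000000 in WT spleen against 18.5 to 21.2 in KO spleen, and 51.0 to 60.7 in WT mLN against 21.4 to 32.4 in KO mLN, so the groups match their labels. These counts per 1000000 reads on genes (CPM) are scaled with the TMM factors of edgeR over all 15 samples, and this unit is used for all levels below. T cell genes such as Cd3e and Cd4 were high in every sample, with a summed 8579 to 11953 CPM for 12 T cell markers. Markers of other cells differed between samples. The erythroid sum was 1906 and 884 in WT spleen replicates 3 and 4 and 815 in WT mLN replicate 4, and at most 120 in the other 12 samples. The macrophage and monocyte sum was highest in KO spleen replicate 3 (459) and 57.2 to 259 in the others. The 10 dendritic cell markers, which include MHC class II genes, gave 212 to 427 in WT and 362 to 704 in KO spleen, and 219 to 485 in WT and 359 to 880 in KO mLN. Of its defining genes Xcr1 had 53 to 134 raw counts and Zbtb46 118 to 237, Itgax and Batf3 were lower with up to 110 and 32, and Clec9a and Cd209a never exceeded 3. The CD8 T cell sum of Cd8a and Cd8b1 was low, at 19.6 to 28.4 CPM in KO mLN, 7.33 to 11.5 in WT mLN and at most 4.97 in spleen. Siglech, of plasmacytoid dendritic cells, had 1.89 to 8.21 CPM in KO mLN and 0.102 to 1.58 in WT mLN, while the sum of the 6 markers of those cells overlapped there (41.5 to 127 and 72.5 to 101). Most of that sum was Ccr9, with means of 57.7 CPM in KO mLN and 83.8 in WT mLN, of mean sums of 69.9 and 91.4. The overlap of the sum therefore says little about the markers with few reads. The sum of 8 natural killer and innate lymphoid markers lay higher in KO, at 122 to 129 against 74.3 to 104 in spleen and 98.6 to 135 against 59.2 to 73.9 in mLN, and most of it came from Eomes, which activated T cells also express. In bulk samples, fewer cells of a type and less RNA per cell cannot be told apart, and the part of these markers in the results below was not tested.

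Per kilobase of exon, the members spanned a wide range of levels. Ifi27l2a, a small interferon-induced membrane protein, was highest at a mean of 388 CPM per kb over the 15 samples, followed by the nuclear body protein Sp100 (103), the secreted glycoprotein Lgals3bp (102) and the DNA-binding Mndal (92.7). The median member stood at 13.4 CPM per kb and Ifi44 was lowest at 0.181. The 5 most abundant members took 42.9% of the members' summed CPM, and 2 members, Oasl1 and Ifi44, were at or under 3 counts in at least 1 sample, the number below which no level was read. In all, 18 members share exon bases with another gene, at most 16.8% of their exon length, and since the strand setting of the counting is not given in the sources used here, reads in those bases cannot be assigned with certainty.

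The summed level of the 45 members was 3854 ± 341 CPM in WT spleen (SD, n = 4), 4940 ± 263 in KO spleen (SD, n = 4), 3752 ± 219 in WT mLN (SD, n = 3) and 5002 ± 412 in KO mLN (SD, n = 4). KO samples spanned 4770 to 5328 in spleen and 4502 to 5502 in mLN, above the WT ranges of 3514 to 4329 and 3603 to 4004, and the ratio of the means was 1.28 in spleen and 1.33 in mLN. Between organs the sums overlapped in both genotypes, with ratios of mLN to spleen of 0.973 in WT and 1.01 in KO. Without Sp100, the member with the most counts, the KO to WT ratios were 1.31 and 1.36.

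**Figure D2:**
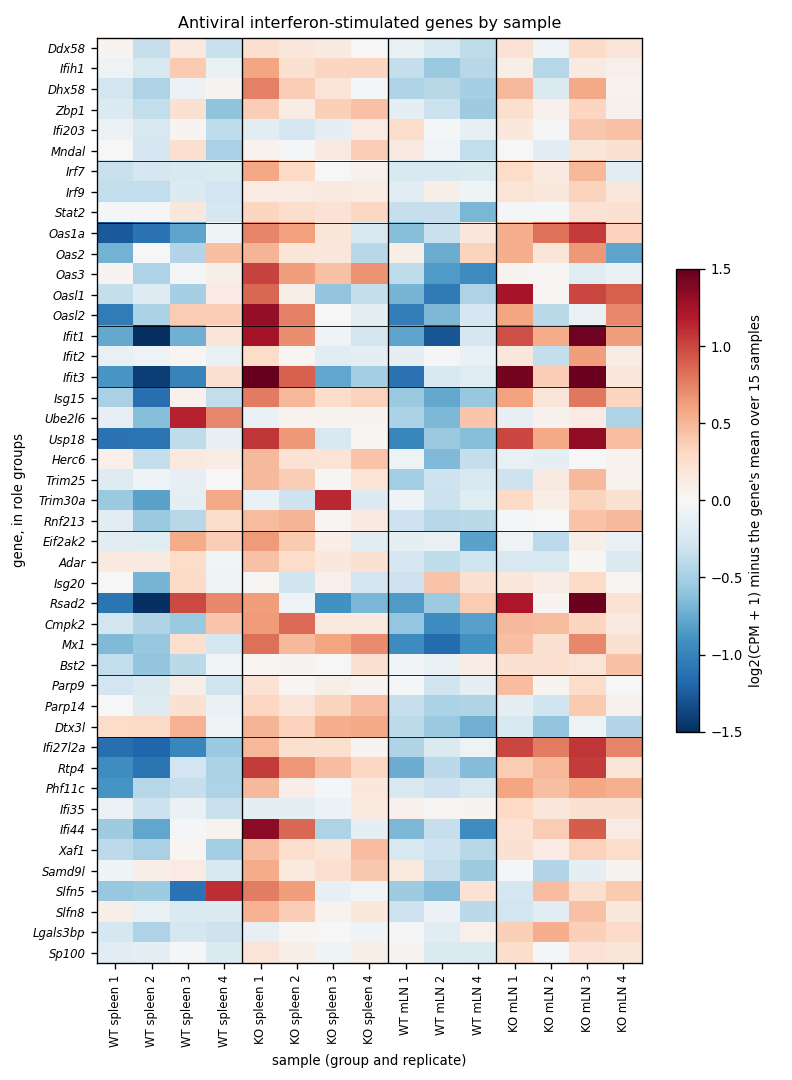
Level of the 45 members (rows, in role groups separated by lines) in the 15 samples (columns, by group and replicate), as log2(CPM + 1) minus the gene's mean over all samples, with red above and blue below that mean. KO columns are mostly red and WT columns mostly blue in both organs, and KO spleen replicate 1 and KO mLN replicate 3 are the reddest of their groups.

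Described by gene, 43 members passed edgeR's filter on low counts in spleen and all 45 in mLN, a filter that a gene can pass through the group where it is high. The fitted KO against WT log2 fold change was positive for 40 of the 43 in spleen, with a median of 0.39, beside 49.3% positive and a median of −0.0041 over all 14254 genes tested. In mLN it was positive for 45 of 45, with a median of 0.46, beside 49.6% positive and a median of −0.0038 over 14359 genes. In spleen 7 members were called higher in KO (edgeR, adjusted p under 0.05) where 0.547% of all genes were, and in mLN 9 members where 0.348% were, and none was called lower (0.751% and 0.292% of all). Of these, 2 in spleen and 7 in mLN also had a log2 fold change above 1, as did 0.126% and 0.223% of all genes, and 0.323% and 0.104% were below −1. Since the members were chosen with this contrast known, nothing is read from these counts. The called members were Ifi27l2a, Irf9, Mx1, Oas3, Phf11c, Rtp4 and Xaf1 in spleen and Cmpk2, Ifi27l2a, Ifit1, Isg15, Mx1, Phf11c, Rtp4, Usp18 and Xaf1 in mLN, with 5 in common, a number not counted over all genes. Both counts depended on single libraries, and so did the number of all genes called higher. Over the same fits that number ranged from 4 to 141 in spleen and from 2 to 63 in mLN. Nothing particular to the members is therefore read from the changes that follow. Leaving out 1 of the 8 spleen libraries gave 1 to 13 members called, with 13 without WT spleen replicate 3, 1 without KO spleen replicate 2 or 3, 2 without WT spleen replicate 1 or 2 or KO spleen replicate 4, and 3 without KO spleen replicate 1. Leaving out 1 of the 7 mLN libraries gave 1 to 8, with 1 without WT mLN replicate 2 or 4 or KO mLN replicate 3, 5 without WT mLN replicate 1 and 4 without KO mLN replicate 4. The medians moved less, from 0.31 to 0.45 in spleen and from 0.39 to 0.51 in mLN.

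Every KO sample lay above every WT sample for 15 members in spleen (5.9% of all genes tested) and for 28 in mLN (6.62% of all), and for 12 members in both organs, which are Bst2, Ifi27l2a, Irf7, Irf9, Isg15, Lgals3bp, Mx1, Oas3, Phf11c, Rtp4, Stat2 and Xaf1. The share of all genes that did so in both organs was not counted, so nothing is read from the 12. No member lay wholly below WT in either organ, where 6.13% and 7.37% of all genes did. Among the smallest values, Isg20, a 3′ exonuclease, had a log2 fold change of 0.0050 in mLN and −0.044 in spleen, and the other members with a negative value in spleen were Rsad2 (−0.33) and Ube2l6 (−0.45). With the 3 WT libraries of high erythroid markers left out, an alternative chosen after seeing the data, 9 members were called higher in spleen and 1 in mLN (0.327% and 0.0134% of all genes in those fits), the median in spleen was 0.56 and that in mLN 0.48.

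**Figure D3:**
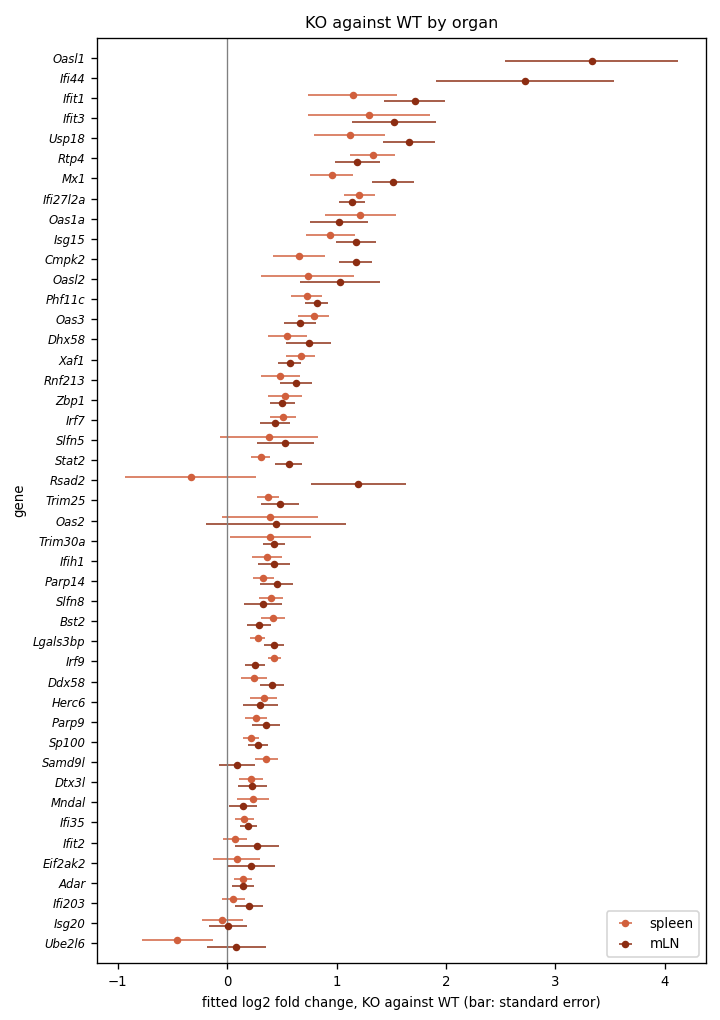
Fitted KO against WT log2 fold change of each member in spleen (light) and mLN (dark), with the standard error as a bar, ordered by the mean of both. The values lie right of 0 for 40 of 43 members in spleen and 45 of 45 in mLN, and the members were chosen with this difference known, so the plot is a description.

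Mesenteric lymph node and spleen differed for a minority of the members, in shares mostly near those of all genes, and mLN was higher for some and lower for others. In WT cells 1 member was called higher in mLN (9.7% of all 14515 genes were) and 6 lower (10.8% of all), of 43 tested (edgeR's quasi-likelihood test, Benjamini-Hochberg adjusted p under 0.05). In KO cells 5 of 45 were called higher (11.4% of all 14240 genes) and 6 lower (13.9% of all). The median log2 difference was −0.14 in WT and −0.087 in KO, with 16 of 43 and 19 of 45 positive, beside 50% and 50.8% of all genes. In these fits no member was called with a difference above 1 in either direction, where 1.27% of all genes were higher and 3.71% lower in WT, and 1.36% and 4% in KO. WT and KO have no sample in common in these comparisons, and 35 of the 43 members tested in both had the same sign in both, 22 lower and 13 higher in mLN. Agreement in sign or in calls between the genotypes was not counted over all genes, so nothing particular to the members is read from it. Called in both genotypes were Adar, Dtx3l and Oas3, lower in mLN, and Ifi27l2a, higher in mLN. Replicate numbers paired the WT organs, since same-numbered samples deviated together, and the fit with the number as a block called 6 of 43 WT members higher in mLN and 9 lower (14.6% and 15.3% of all genes in that fit). The 5 added as higher were Bst2 (log2 difference 0.32, adjusted p = 0.0377 in edgeR), Ifi203 (0.28, adjusted p = 0.0114), Ifi35 (0.28, adjusted p = 0.0228), Irf9 (0.30, adjusted p = 0.0225) and Lgals3bp (0.30, adjusted p = 0.00936), and the 3 added as lower were Cmpk2 (−0.71, adjusted p = 0.0147), Ifih1 (−0.31, adjusted p = 0.0193) and Trim25 (−0.28, adjusted p = 0.0372). The WT calls made without the block also passed with it. Among them were Mx1 (−0.56, adjusted p = 0.0368 in edgeR), Oas3 (−0.64, adjusted p = 0.00633), Parp14 (−0.34, adjusted p = 0.0097), Stat2 (−0.37, adjusted p = 0.00721) and Ifi27l2a (0.70, adjusted p = 0.00099). In KO cells the fit with the block called 6 of 45 members higher in mLN and 7 lower (11.7% and 15.1% of all genes in that fit). It kept the KO calls made without the block. Rsad2 was added as higher (1.04, adjusted p = 0.0475 in edgeR) and Parp14 as lower (−0.34, adjusted p = 0.0332). Organ differences given by gene below, and their fits without single libraries, hold no block unless it is named.

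**Figure D4:**
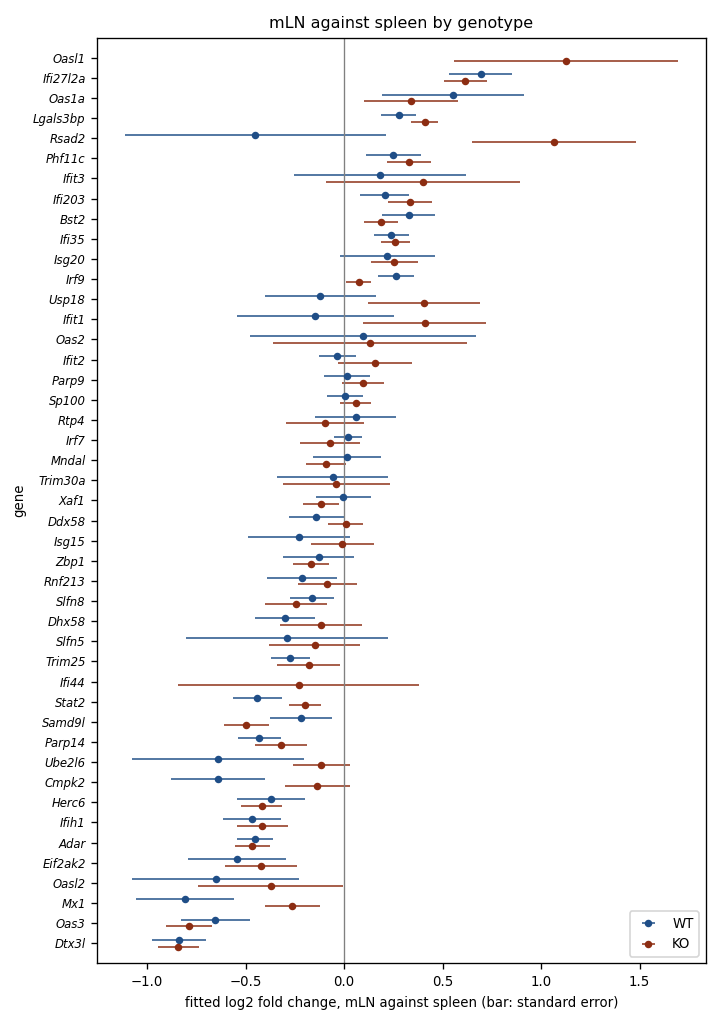
Fitted mLN against spleen log2 difference of each member in WT (blue) and KO (red) cells, with the standard error as a bar, ordered by the mean of both. Values lie on both sides of 0, and Dtx3l, Oas3 and Adar at the low end and Ifi27l2a at the high end passed the test in both genotypes.

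The KO against WT difference was compared between the organs by an interaction term of genotype and organ in a fit of the 15 samples without a replicate block. With the block, 0 members were called in either direction. No member and none of 15438 genes passed at an adjusted p under 0.05 in edgeR, 652 genes (4.22%) and 1 member had an unadjusted p under 0.05, and DESeq2 called 4 genes and no member. That member was Oasl1, an OAS-like gene with few reads. Oasl1 had 6, 8, 5 and 13 raw counts in WT spleen, 27, 14, 4 and 7 in KO spleen, 3, 0 and 5 in WT mLN and 42, 12, 32 and 32 in KO mLN. KO and WT overlapped in spleen and did not in mLN, and at these counts the difference between organs was not detectable. Oasl1, Isg20, Rsad2 and Ube2l6 were singled out after their values were seen.

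Among the 6 sensors, which bind RNA or DNA of viral origin, Ddx58 (RIG-I), Ifih1 (MDA5) and Dhx58 (LGP2) form the RNA helicase family, Zbp1 senses Z-form nucleic acids, and Ifi203 and Mndal belong to the interferon-inducible DNA-binding family. All 6 had positive KO against WT log2 fold changes in both organs, from 0.057 to 0.55 in spleen and 0.14 to 0.75 in mLN, and their summed level had KO to WT ratios of 1.20 and 1.21 with overlapping groups. Mndal (chromosome 1, 173849126 to 173942491, GRCm38), the most abundant per kilobase, had 333, 279, 391 and 237 CPM in WT spleen, 346, 327, 363 and 428 in KO spleen, 365, 323 and 258 in WT mLN and 333, 295, 376 and 389 in KO mLN. WT and KO overlapped in both organs, with log2 fold changes of 0.24 (standard error 0.14) and 0.14 (0.13). Ifi203 had 285, 257, 312 and 232 CPM in WT spleen, 271, 254, 277 and 329.9 in KO spleen, 367, 301 and 279 in WT mLN and 338, 297, 402 and 411 in KO mLN. Its mLN values tended above its spleen values with overlap, and only the difference in KO passed without the block (0.33, standard error 0.11, adjusted p = 0.0462 in edgeR). Ifih1 had 64.9, 57.5, 89.8 and 63.6 CPM in WT spleen, 104, 80.5, 86.0 and 85.7 in KO spleen, 53.3, 46.3 and 51.1 in WT mLN and 72.7, 50.6, 74.8 and 72.3 in KO mLN. Every mLN sample of Ifih1 was below every spleen sample of its genotype, by −0.42 in KO (standard error 0.13, adjusted p = 0.0347 in edgeR) and by −0.47 in WT, where it did not pass without the block (adjusted p = 0.0536 in edgeR). The KO call of Ifi203 was lost without KO spleen replicate 1, 2 or 3 or KO mLN replicate 1, 3 or 4 (adjusted p from 0.0510 to 0.131 in edgeR), and that of Ifih1 without KO spleen replicate 1, 3 or 4 or KO mLN replicate 2 (adjusted p from 0.0574 to 0.107).

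Of the transcription factors, Stat2 and Irf9 bind the ISRE in a complex, and Irf7 amplifies type I interferon production. All 3 were above WT in every KO sample of both organs. Irf7 (chromosome 7, 141262706 to 141266481) had 94.4, 101, 102 and 103 CPM in WT spleen, 179, 148, 121 and 125 in KO spleen, 102, 102 and 103 in WT mLN and 145, 131, 169 and 107 in KO mLN. The WT samples of Irf7 lay within 94.4 to 103 CPM in both organs while the KO samples were spread from 107 to 179, and the log2 fold changes were 0.51 (standard error 0.12) in spleen and 0.44 (0.14) in mLN. Irf9 (chromosome 14, 55603571 to 55610030) had 112, 112, 126 and 118 CPM in WT spleen, 158, 158, 159 and 156 in KO spleen, 129.6, 154 and 139 in WT mLN and 166, 162, 182 and 162 in KO mLN. The 4 KO spleen samples of Irf9 were nearly equal, at 158 ± 1.06 (SD, n = 4), and its log2 fold change was 0.43 (standard error 0.06) in spleen and 0.26 (0.10) in mLN. Stat2 (chromosome 10, 128270559 to 128292849) had 85.9, 86.0, 97.9 and 72.8 CPM in WT spleen, 109.7, 105, 101 and 108 in KO spleen, 68.4, 68.2 and 53.8 in WT mLN and 86.3, 85.2, 101 and 102 in KO mLN. It was 0.31 (standard error 0.09) and 0.56 (0.12) higher in KO on the log2 scale, and in WT cells it was lower in mLN than in spleen without overlap, by −0.44 (standard error 0.12, adjusted p = 0.0340 in edgeR). Without the block, that Stat2 call was lost when any WT library but WT spleen replicate 4 was left out (adjusted p from 0.0537 to 0.103 in edgeR). In the fit of all WT libraries with the block it passed (adjusted p = 0.00721 in edgeR).

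The active enzymes of the OAS family make the oligoadenylates that activate RNase L, which cleaves viral and cellular RNA. The summed level of the family did not overlap between genotypes, with KO to WT ratios of 1.76 in spleen and 1.73 in mLN. Oas3 (chromosome 5, 120753098 to 120777661), the most abundant per kilobase, had 70.4, 49.1, 66.6 and 72.4 CPM in WT spleen, 139, 106, 93.0 and 109.6 in KO spleen, 52.2, 37.3 and 34.6 in WT mLN and 70.2, 69.0, 60.1 and 63.3 in KO mLN. All KO samples of Oas3 were above all WT samples of their organ, with log2 fold changes of 0.79 (standard error 0.14) in spleen and 0.67 (0.15) in mLN. The gene was lower in mLN than in spleen in both genotypes, by −0.65 in WT (standard error 0.17, adjusted p = 0.0274 in edgeR) and by −0.79 in KO (standard error 0.12, adjusted p = 0.000636), and the KO samples of the organs did not overlap. The WT call was lost without WT spleen replicate 1, 3 or 4 or WT mLN replicate 2 or 4 (adjusted p from 0.0523 to 0.0909 in edgeR), and the KO call held without any 1 library. The other members of the family, Oas1a, Oas2, Oasl1 and Oasl2, had at most 22.4 CPM in any sample, and no organ difference that could be tested passed for them. Oas1a had fold changes of 1.22 (standard error 0.32) and 1.02 (0.27) on the log2 scale, and Oas2, at 0.39 (standard error 0.44) and 0.44 (0.64), did not differ by more than its error.

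The IFIT proteins bind foreign RNA ends and block translation. Ifit1 (chromosome 19, 34640871 to 34650009) had 18.9, 10.1, 19.6 and 37.9 CPM in WT spleen, 79.6, 54.0, 31.8 and 27.1 in KO spleen, 18.6, 13.0 and 27.6 in WT mLN and 65.3, 49.1, 92.8 and 51.6 in KO mLN. The spleen groups overlapped through WT replicate 4 and KO replicates 3 and 4, the mLN groups did not, and the log2 fold changes were 1.15 (standard error 0.41) and 1.71 (0.28). Ifit3 was alike, at 1.30 (standard error 0.55) in spleen and 1.53 (0.39) in mLN. Ifit2 had the smallest differences of the family, at 0.072 (standard error 0.11) and 0.28 (0.20), with overlap in both organs. None of the 3 IFIT genes passed between organs, where their log2 differences lay between −0.15 and 0.41.

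In the ISG15 group, Isg15 is a ubiquitin-like modifier, Ube2l6 and Herc6 attach it, Usp18 removes it and also dampens signaling at the type I interferon receptor, and Trim25, Trim30a and Rnf213 are ubiquitin ligases. Isg15 (chromosome 4, 156199424 to 156200818) had 15.7, 9.72, 23.5 and 17.2 CPM in WT spleen, 39.3, 32.0, 27.5 and 28.9 in KO spleen, 15, 12.8 and 14.9 in WT mLN and 34.8, 25.7, 39.7 and 28.5 in KO mLN. KO and WT did not overlap in either organ, and the log2 fold changes of Isg15 were 0.94 (standard error 0.23) and 1.18 (0.18). Usp18 (chromosome 6, 121245906 to 121270917) had 9.67, 9.72, 16.7 and 20.1 CPM in WT spleen, 47.1, 34.9, 18.6 and 22.2 in KO spleen, 10.7, 14.6 and 13.7 in WT mLN and 44.9, 32.9, 56.7 and 30.3 in KO mLN. In spleen WT replicate 4 lay above KO replicate 3, in mLN the groups stood apart, and the log2 fold changes of Usp18 were 1.12 (standard error 0.32) and 1.66 (0.24). Trim30a (chromosome 7, 104409025 to 104465193), the most abundant of the group per kilobase, had 85.5, 71.9, 114 and 188 CPM in WT spleen, 118, 101, 277 and 109 in KO spleen, 122, 101 and 111 in WT mLN and 155, 135, 159 and 148 in KO mLN. Its spleen groups overlapped widely (log2 fold change 0.40, standard error 0.37), with 1 high sample in each, and its mLN groups did not (0.43, standard error 0.10). KO spleen replicate 3 and WT spleen replicate 4, the samples high in Trim30a, had the highest macrophage and monocyte sums of their groups (459 and 227 CPM). They also had the highest neutrophil sums of their groups (443 and 559 CPM). WT mLN replicate 1 had a macrophage and monocyte sum of 259 CPM with Trim30a at 122. A link of Trim30a to any of these markers was not tested. Herc6 had 36.5, 26.7, 38.3 and 37.5 CPM in WT spleen, 48.9, 40.2, 39.9 and 46.8 in KO spleen, 32.8, 21.5 and 26.9 in WT mLN and 31.9, 31.3, 34.3 and 35.8 in KO mLN. In KO cells Herc6 was lower in mLN than in spleen without overlap, by −0.42 (standard error 0.10, adjusted p = 0.0121 in edgeR). Ube2l6 was the member farthest below 0 in spleen, and its highest WT levels, 50.2 and 36.8 CPM in WT spleen replicates 3 and 4 and 29.7 in WT mLN replicate 4, were in the 3 samples with the highest erythroid sums, while the other 4 WT samples had 13.4 to 20.2 and the 8 KO samples 15.7 to 24.0. Trim25 and Rnf213 had log2 fold changes from 0.37 to 0.63.

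**Figure D5:**
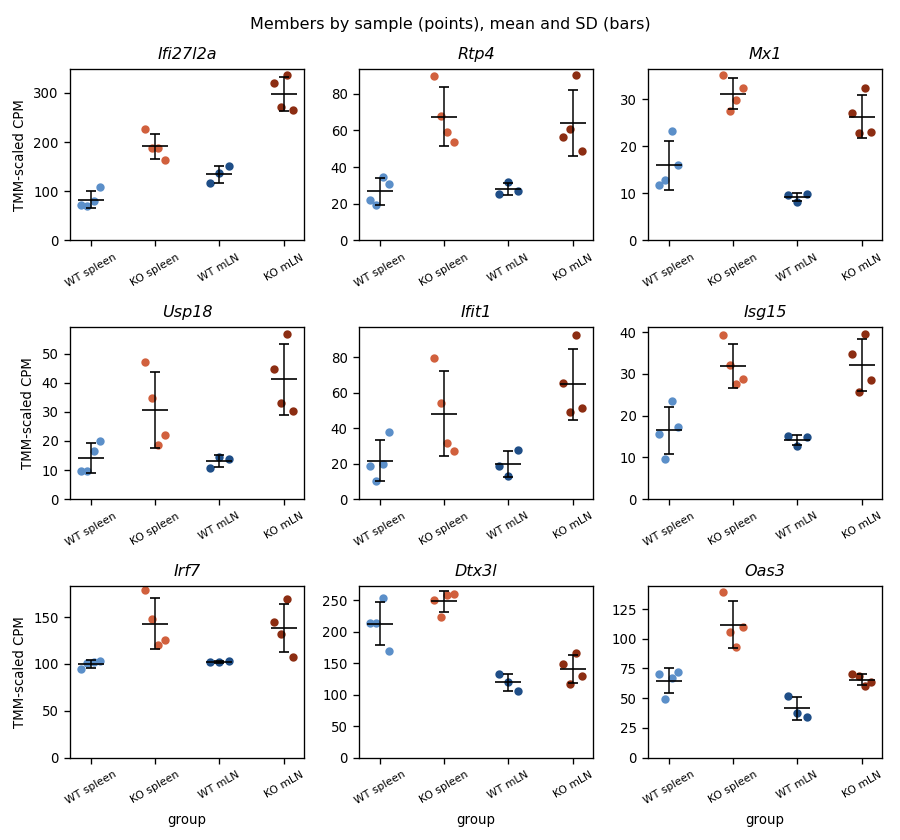
TMM-scaled CPM of 9 members in every sample (points), with the mean (long line) and SD (error bars) of each group of 3 or 4 samples, on linear axes from 0. KO points lie above WT points of the same organ for Ifi27l2a, Rtp4, Mx1, Isg15, Irf7 and Oas3, and Dtx3l is set apart by organ rather than by genotype.

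The effectors that act on RNA, nucleotides or virus particles were uneven. Mx1 (chromosome 16, 97447035 to 97462907), a dynamin-like GTPase whose gene is defective in many laboratory strains, had 11.9, 12.8, 23.4 and 16.1 CPM in WT spleen, 35.2, 27.5, 29.9 and 32.4 in KO spleen, 9.61, 8.18 and 9.87 in WT mLN and 27.0, 22.9, 32.5 and 23 in KO mLN. All KO samples of Mx1 were above all WT samples of their organ, with log2 fold changes of 0.96 (standard error 0.20) and 1.51 (0.19). In WT cells it was lower in mLN than in spleen (−0.81, standard error 0.25, adjusted p = 0.0463 in edgeR), a call that was lost when any WT library but WT spleen replicate 1 was left out (adjusted p from 0.0530 to 0.129). Cmpk2 (chromosome 12, 26469204 to 26479837), a mitochondrial nucleotide kinase, had 30.7, 27.0, 25.0 and 50.3 CPM in WT spleen, 58.9, 68.4, 41.4 and 41.3 in KO spleen, 24.7, 18.9 and 20.8 in WT mLN and 52.8, 52.4, 46.9 and 41.6 in KO mLN. The spleen groups overlapped through WT replicate 4, and the log2 fold changes of Cmpk2 were 0.66 (standard error 0.24) and 1.17 (0.15). Bst2 (chromosome 8, 71534255 to 71537456), or tetherin, holds virus particles at the cell surface, and it had 45.7, 39.1, 44.6 and 57.9 CPM in WT spleen, 60.8, 61.1, 59.4 and 69.5 in KO spleen, 57.8, 55.5 and 64.4 in WT mLN and 69.9, 70.5, 67.9 and 81.2 in KO mLN. KO was above WT in every sample by small margins, 0.42 (standard error 0.11) and 0.29 (0.11) on the log2 scale. Adar (chromosome 3, 89715022 to 89753446), which edits double-stranded RNA, had 119, 118, 129.9 and 105 CPM in WT spleen, 145, 130.3, 120.1 and 126 in KO spleen, 89.8, 82.2 and 87.4 in WT mLN and 90.9, 90.9, 108 and 92.4 in KO mLN. Adar was set apart by organ, with every mLN sample below every spleen sample of its genotype, by −0.45 in WT (standard error 0.09, adjusted p = 0.0084 in edgeR) and −0.47 in KO (standard error 0.09, adjusted p = 0.00285), and both calls held without any 1 library. The genotype differences of Adar were 0.15 in both organs. Rsad2 (viperin), Isg20 and Eif2ak2 (PKR) overlapped between genotypes in spleen, and Rsad2 had 2.48 to 18.7 CPM in WT spleen and 4.27 to 14.3 in KO spleen, against 4.52 to 11.9 in WT mLN and 9.22 to 26.5 in KO mLN.

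Dtx3l is a ubiquitin ligase that works in a complex with Parp9, and Parp14 is an ADP-ribosyltransferase. The 3 genes lie next to each other on chromosome 16. Dtx3l (35926511 to 35939151) had 213, 214, 253 and 169.8 CPM in WT spleen, 251, 224, 257 and 259.9 in KO spleen, 133, 119 and 106 in WT mLN and 149, 116, 166 and 129 in KO mLN. It had the lowest mLN against spleen value of all members in both genotypes, −0.84 in WT (standard error 0.14, adjusted p = 0.00347 in edgeR) and −0.84 in KO (standard error 0.11, adjusted p = 0.000216), without overlap, and both calls held without any 1 library. Parp14 (35832874 to 35871544) had 97.5, 85.0, 114 and 90.2 CPM in WT spleen, 121, 111, 122 and 134 in KO spleen, 76.0, 69.8 and 70.9 in WT mLN and 88.6, 78.8, 127 and 101 in KO mLN. In WT it was lower in mLN without overlap (−0.43, standard error 0.11, adjusted p = 0.0230 in edgeR), a call lost without WT spleen replicate 1 or WT mLN replicate 2 or 4 (adjusted p from 0.0581 to 0.0731). In KO the difference of −0.32 (standard error 0.13) did not pass without the block. With the block it was −0.34 and passed (adjusted p = 0.0332 in edgeR). Parp9, whose start overlaps that of Dtx3l on the opposite strand by 458 exon bases, had mLN against spleen differences of 0.014 (standard error 0.12) in WT and 0.095 (0.10) in KO. The summed level of the 3 genes had mLN to spleen ratios of 0.720 in WT and 0.757 in KO without overlap, while the KO to WT ratios were 1.20 and 1.26 with overlap.

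Among the other induced genes, Ifi27l2a, Rtp4, Phf11c and Xaf1 had KO above WT in every sample of both organs. Ifi27l2a (chromosome 12, 103442167 to 103443680) had 72.5, 69.7, 80.8 and 108 CPM in WT spleen, 226, 189, 188 and 165 in KO spleen, 117, 137 and 151 in WT mLN and 319.5, 272, 335 and 266 in KO mLN. Genotype and organ both set this gene apart without overlap, with KO against WT log2 fold changes of 1.21 (standard error 0.15) and 1.14 (0.12) and mLN against spleen differences of 0.69 in WT (standard error 0.16, adjusted p = 0.0160 in edgeR) and 0.62 in KO (standard error 0.11, adjusted p = 0.00183). Of its organ calls the one in WT was lost when single libraries were left out, without WT spleen replicate 1 or WT mLN replicate 4 (adjusted p = 0.0503 and adjusted p = 0.0551 in edgeR). Rtp4 (chromosome 16, 23520291 to 23614222) had 22.0, 19.5, 34.8 and 30.7 CPM in WT spleen, 89.8, 67.7, 59.4 and 53.5 in KO spleen, 25.3, 32.0 and 27.0 in WT mLN and 56.2, 61.0, 90.1 and 48.8 in KO mLN. The fold changes of Rtp4, known as a receptor chaperone, were 1.33 (standard error 0.21) and 1.19 (0.21) on the log2 scale, and its mLN against spleen differences were 0.059 in WT and −0.10 in KO. Phf11c (chromosome 14, 59380833 to 59395381), a PHD finger gene, had 23.4, 32.5, 34.7 and 31.8 CPM in WT spleen, 62.5, 47.5, 43.7 and 49.5 in KO spleen, 37.3, 35.5 and 37.1 in WT mLN and 67.2, 60.9, 66.3 and 64.5 in KO mLN. Its KO values were 0.73 (standard error 0.14) and 0.82 (0.10) higher on the log2 scale, and in KO cells its mLN values were above its spleen values by 0.33 with overlap (standard error 0.11, adjusted p = 0.0488 in edgeR), a call that was lost when any KO library but KO spleen replicate 1 was left out (adjusted p from 0.0542 to 0.142). It has near relatives in the mouse genome, so reads shared with them are not in its count. Xaf1 (chromosome 11, 72301629 to 72313733), a binding partner of an apoptosis inhibitor, had 44.1, 41.2, 59.5 and 40.5 CPM in WT spleen, 80.7, 68.8, 66.1 and 80.4 in KO spleen, 49.2, 46.9 and 43.5 in WT mLN and 68.1, 63.7, 74.3 and 70.6 in KO mLN. Its log2 fold changes were 0.67 (standard error 0.13) and 0.57 (0.11), and its mLN against spleen differences were −0.0035 in WT and −0.12 in KO.

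Of the remaining induced genes, 3 more differed between the organs in KO cells. Lgals3bp (chromosome 11, 118392751 to 118402092) had 238, 206, 239 and 229 CPM in WT spleen, 261, 288, 286 and 274 in KO spleen, 279, 255 and 300.2 in WT mLN and 364, 415, 366 and 348 in KO mLN. WT spleen was lowest and KO mLN highest, both apart from the other groups, the KO spleen samples lay within the range of WT mLN, and the mLN against spleen difference was 0.41 in KO (standard error 0.07, adjusted p = 0.00152 in edgeR). Ifi35 had 133, 113, 133 and 112 CPM in WT spleen, 129, 129, 134 and 157 in KO spleen, 148, 143 and 145 in WT mLN and 174, 160.0, 166 and 166 in KO mLN. Its mLN samples were above its spleen samples in both genotypes, by 0.26 in KO (standard error 0.07, adjusted p = 0.0254 in edgeR), a call lost without KO spleen replicate 1, 2 or 3 or KO mLN replicate 1 (adjusted p from 0.0518 to 0.0872). Samd9l, a restriction factor of poxviruses, had 114, 126, 130.0 and 101 CPM in WT spleen, 175, 131, 142 and 158 in KO spleen, 131, 93.5 and 81.5 in WT mLN and 117, 87.4, 108 and 122 in KO mLN. In KO it was lower in mLN without overlap, by −0.50 (standard error 0.12, adjusted p = 0.00925 in edgeR), and the interaction for this gene was −0.27 (standard error 0.21). Ifi44, Slfn5, Slfn8 and Sp100 passed in neither organ comparison, with KO against WT log2 fold changes of 0.22 to 0.40 in spleen for the 3 that were tested there.

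Samples of a group differed in how many members were highest or lowest in them, which is given without the same count over all genes. KO spleen replicate 1 was the highest of its 4 samples for 31 of the 45 members and KO mLN replicate 3 for 28, while KO spleen replicate 3 was the lowest for 20 and KO mLN replicate 2 for 26. Among WT spleen samples, replicate 3 was highest for 26 members and lowest for 4, replicate 4 highest for 17 and lowest for 12, and replicate 2 highest for 0 and lowest for 21. The 3 WT mLN samples were highest for 21, 9 and 15 members and lowest for 11, 20 and 14. The median coefficient of variation of the members was 20.7% in WT spleen, 14.2% in KO spleen, 12.5% in WT mLN and 15.7% in KO mLN. By promoter, the 16 members with the ISRE letters had a median KO against WT log2 fold change of 0.39 in spleen and 0.48 in mLN, and the 20 without had 0.35 (18 tested) and 0.36, with ranges that overlapped widely.

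Upstream of the members, the interferon genes themselves gave few reads. Of 21 ligand genes, 1 passed the filter, Ifng, and the other 20 had at most 3 counts in any sample. Ifng stood at 135 ± 84.3 CPM in WT spleen (SD, n = 4), 171 ± 57.9 in KO spleen (SD, n = 4), 105 ± 74.6 in WT mLN (SD, n = 3) and 101 ± 19.3 in KO mLN (SD, n = 4). It was lower in mLN than in spleen in KO cells (log2 difference −0.78, standard error 0.22, adjusted p = 0.0220 in edgeR) and overlapped between genotypes. Of 6 receptor genes 5 were tested, and Ifngr1 had KO against WT values of −1.01 (standard error 0.10) in spleen and −1.12 (0.19) in mLN. In spleen, Ifnar1 had 168 ± 14.6 CPM without and 185 ± 9.55 with the deletion (SD, n = 4 in each group), and Ifnar2 47.5 ± 7.31 and 66.0 ± 5.17. Of the 5 receptor genes tested, 0 were called higher in KO in either organ. The spleen levels of Ifnar1 and Ifnar2 are therefore not read as a difference, and they do not speak for mLN. Among 6 kinases and STAT factors none was called between genotypes in either organ, where 0.547% and 0.348% of all genes were called higher and 0.751% and 0.292% lower. Tyk2, the kinase of Ifnar1, was lower in mLN than in spleen in both genotypes, by −1.11 in WT (standard error 0.15, adjusted p = 0.0013 in edgeR) and −1.17 in KO (standard error 0.12, adjusted p = 5.52e-05).

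The members were set beside 74 other interferon-stimulated genes, listed by symbol. Of these, 2 of 67 tested were called higher and 1 lower in KO spleen (0.547% and 0.751% of all genes), with a median log2 fold change of 0.11. In mLN 1 of 69 was called higher and 0 lower (0.348% and 0.292% of all genes), with a median of 0.11. The members, which were chosen with that contrast known, had medians of 0.39 and 0.46. The genes called were Helz2 (0.41), Ifi209 (0.60) and Apobec3 (−0.47) in spleen and Mx2 (2.86) in mLN. Between organs, 10 of 67 were called higher and 7 lower in mLN in WT (9.7% and 10.8% of all genes) and 12 and 9 of 67 in KO (11.4% and 13.9% of all). Of the feedback inhibitors outside the members, 0 of 8 were called between genotypes in either organ, beside the shares of all genes given above. In KO cells Socs1 was higher in mLN than in spleen (0.60, standard error 0.07, adjusted p = 0.000169 in edgeR).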

How the data were processed

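RNA of the sorted cells was made into libraries with a low-input kit and sequenced. The authors aligned reads with STAR 2.6.1a and deposited 1 table per sample of raw read counts per gene, with Ensembl identifiers. The processing notes also name bcl2fastq 2.19.1.403, RSEM and DESeq2 1.22.2, and the study left out 1 WT mLN sample on quality control. The aligned genome is GRCm38, and 55240 of 55421 identifiers matched GENCODE M21. Rows that name no gene, which held 67.4 to 70.3% of the reads of a table, stayed out of library sizes and tests. Between 58.4 and 63.4% of uniquely mapped reads fell on no gene.

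Samples were grouped by genotype and organ from the labels. Each of 5 comparisons was fitted over all genes that passed filterByExpr with edgeR 4.0.16 in R 4.3.3 (TMM scaling, quasi-likelihood test, Benjamini-Hochberg over all genes tested, called at an adjusted p under 0.05), and the fits were tested on simulated data. Levels are counts per 1000000 reads on genes, scaled by TMM over all 15 samples, and levels per kilobase use the union of a gene's exons. The members, role groups, pathway lists and marker lists were chosen with earlier results of these data known. Values in every sample are given for members called in any fit, at most 10 a fit, and for the member of each role group that was highest per kilobase, and the other members are given by ranges and counts. Alternatives were DESeq2 1.42.0, RLE scaling, other filters and call rules, a replicate block, all 15 samples in 1 fit and leaving out each sample. Leaving out the 3 WT libraries with high erythroid markers was added after seeing the data. Replicate numbers were taken to pair samples where every same-numbered pair's deviations correlated above 0.1 across genes, which held between the WT organs (0.258, 0.243 and 0.291), where WT spleen replicate 3 has no partner. It did not hold between genotypes, nor between the KO organs, where the values were all positive (0.041, 0.170, 0.026 and 0.259). The replicate numbers come from the labels, which do not say whether they mark a mouse. The paper gives 4 mice per group, so the KO organs may share mice. The KO organ p-values without the block leave such pairing out. One of the listed genes is not reported here.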

Additional observations from a re-analysis of the deposited data

Results flagged for a closer look

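In 8 of 138 groups of 4 samples, 1 sample's gap to the nearest other was large against the range of the group. Chance alone gives about 1 in 20. Ifih1 stood at 50.6 CPM in KO mLN replicate 2, where the other 3 had 72.3 to 74.8. Ube2l6 was 20.4 in KO spleen replicate 1, where the others had 22.7 to 22.8. Herc6 was 26.7 in WT spleen replicate 2, where the others had 36.5 to 38.3. Trim30a reached 277 in KO spleen replicate 3, where the others had 101 to 118. Adar was 108 in KO mLN replicate 3, where the others had 90.9 to 92.4. In KO spleen replicate 4 Bst2 was 69.5 beside 59.4 to 61.1, and Ifi35 was 157 beside 129 to 134. Slfn5, singled out after its values were seen, was 44.4 in WT spleen replicate 4 beside 8.81 to 13.6. Each was the only such sample of its gene.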

How the results depend on the processing

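Numbers of called genes changed with most settings, and the members' median between organs changed sign under some. The cause of these changes was not tested. The counts to compare with, higher and lower, are 78 and 107 genes for KO against WT in spleen (7 and 0 members), 50 and 42 in mLN (9 and 0), 1408 and 1572 for mLN against spleen in WT (1 and 6), 1626 and 1976 in KO (5 and 6), and 0 for the interaction. DESeq2 called 377 genes higher and 446 lower in spleen with 19 members higher, 288 and 300 in mLN with 20 members, 2 members higher in the WT organs, and 1 gene higher and 3 lower for the interaction. Without a filter on low counts edgeR called 677 and 745 genes in spleen (29 members higher, 1 lower), 420 and 493 in mLN (24 members), 10 members lower between the WT organs, and 64 and 48 genes (1 member higher) for the interaction. With at least 10 counts in every sample 68 genes were lower in mLN. With a log2 fold change above 1 also required, 18 and 46 genes (2 members) remained in spleen, 32 and 15 in mLN, 184 and 539 between the WT organs and 193 and 570 between the KO organs, with 0 members in either direction in both organ comparisons. With all 15 samples in 1 fit there were 42 and 43 genes in spleen, 209 and 291 in mLN, and 5 members higher between the WT organs. Scaling by RLE changed no such count by more than 1.5 times.

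With the replicate block, 8 and 9 genes were called in spleen, 1 and 0 in mLN, with 0 members in each, 2126 genes and 6 members higher between the WT organs, and 1 and 2 genes for the interaction. The replicate numbers did not pair KO with WT samples, so these losses are not read as weaker effects, and in the KO organs the block moved no count of calls by over 1.5 times. With the 3 WT libraries of high erythroid markers left out (WT spleen replicates 3 and 4 and WT mLN replicate 4), 48 and 71 genes were called in spleen with a members' median of 0.56, 2 and 2 in mLN with 1 member, and 535 and 937 between the WT organs with 2 members lower. The median of the members between the WT organs then changed sign to 0.042, the log2 ratio of the summed levels to 0.068 and the median interaction to −0.036. In WT, Mx1 (adjusted p = 0.201 in edgeR), Oas3 (adjusted p = 0.240), Parp14 (adjusted p = 0.116) and Stat2 (adjusted p = 0.0826) were then no longer called between organs, while Adar, Dtx3l and Ifi27l2a were. The mean log2 CPM gave KO against WT differences of 0.51 in spleen and 0.68 in mLN in place of the summed level, and plain CPM turned the log2 ratio of the sums between the KO organs to −0.0042.

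Leaving out 1 library at a time gave 4 to 141 genes higher and 8 to 183 lower in spleen, with 1 to 13 members higher and medians of 0.31 to 0.45. In mLN it gave 2 to 63 and 1 to 54 genes, 1 to 8 members and medians of 0.39 to 0.51. Between the WT organs it gave 788 to 1294 and 1028 to 1486 genes, 0 to 2 members higher and 2 to 5 lower, and medians of −0.22 to −0.038. Between the KO organs it gave 1104 to 1663 and 1519 to 2006 genes, 2 to 5 members higher and 5 to 7 lower, and medians of −0.13 to 0.057, with the sign changed without KO spleen replicate 1 (0.057) or KO mLN replicate 4 (0.0030). The log2 ratio of the sums ranged from 0.32 to 0.42 in spleen, 0.37 to 0.46 in mLN, −0.088 to 0.022 between the WT organs (0.022 without WT spleen replicate 3) and −0.031 to 0.065 between the KO organs (−0.031 without KO mLN replicate 3). The interaction called 0 members in each. With 3 or 4 samples a group, the edgeR fits of 2 groups recovered 19 to 36% of genes changed by 1.5-fold in simulated data, so differences of that size can be missed. The simulation gave every gene the same spread and changed no gene with few reads. That spread was smaller than the common coefficient of variation estimated for KO against WT in mLN (21.6%) and between the WT organs (18.9%). It was larger than the one for KO against WT in spleen (15.3%). Recovery can therefore be lower in mLN and between the WT organs, and for members with few reads or a larger spread.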
